A study of Rattus norvegicus with 6 samples.

Results

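The genes described here are 6 protein-coding genes of the rat mitochondrial genome, in H9c2 cells with or without a mutant of the receptor BMPR2. They are mt-Co1 (ENSRNOG00000034234), mt-Co2 (ENSRNOG00000030371) and mt-Co3 (ENSRNOG00000030700) of cytochrome c oxidase, mt-Cyb (ENSRNOG00000031766) of the cytochrome bc1 complex, and mt-Atp6 (ENSRNOG00000031979) and mt-Atp8 (ENSRNOG00000033299) of ATP synthase. They were chosen by identifier, as 6 of the 26404 gene rows of the count files, by a rule that uses no measured value. The list in that rule was, however, set with earlier results of these data known. All 6 passed the filter on low counts, which kept 12221 genes. H9c2 is a myoblast line from embryonic rat heart, and polyA RNA of these cells was sequenced in 6 libraries, 2 from cells given an empty vector, 2 labelled BMPR2 tail domain mutant and 2 labelled BMPR2 kinase domain mutant. The series' design describes the mutant cells as lacking the tail or the kinase domain of BMPR2, a type II receptor for bone morphogenetic proteins, with the empty vector cells as control for both. The labels do not say how the mutants were introduced, whether a mutant line is a clone, or whether the libraries of a group came from separate cultures. The p-values therefore reflect the spread among these libraries alone, and that spread may be technical.

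The mitochondrial genome is a small circle that encodes a handful of membrane subunits of the respiratory chain, while most subunits of the same complexes are encoded in the nucleus and imported. Its heavy strand promoter gives a long polycistronic RNA, which is cut mostly at the tRNAs between genes and then polyadenylated. The 6 genes thus start from the same primary transcript and reach different levels through processing and decay. In heart and muscle cells, cytochrome bc1 and cytochrome c oxidase pass electrons to oxygen while pumping protons, and ATP synthase uses the proton gradient to make ATP. The genes mt-Atp8 and mt-Atp6 lie next to each other, share an mRNA and have overlapping reading frames.

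Total counts in genes ranged from 19116082 to 24936136 per library. The files pair no identifier with a symbol, and the symbols of the 6 genes come from the list that defines them. For that reason neither Bmpr2, nor markers of the myoblast line, nor nuclear genes of the same complexes were looked up, so no check of the group labels by Bmpr2 was made. Among the 6 genes, tail mutant replicate 2 differed in composition from the other libraries. It also had the fewest counts in genes, at 19116082. Rows that name no gene held 48.4% of its file's total, against 43.1% to 46.9% in the other libraries. The part of these measures in its composition was not tested. The fitted differences that involve the tail mutant are given with and without that library. Gene lengths were not used here, so levels were compared between libraries and not between genes. In bulk RNA a lower level can come from fewer cells that express a gene or from less RNA per cell, and the data do not separate these.

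No difference between the groups in the share of counts taken by the 6 genes together exceeded the spread between replicates, and the replicates of empty vector and of the kinase mutant lay farther apart than any 2 group means. The summed share of the counts in genes was 8.97% and 11.7% with empty vector, 9.58% and 9.35% with the tail mutant, and 11.3% and 8.35% with the kinase mutant. Both mutants' libraries thus overlapped with empty vector, and the highest and the lowest of the mutant libraries were replicates of the same group, the kinase mutant. The means were 10.3% ± 1.94 with empty vector, 9.47% ± 0.159 with the tail mutant and 9.81% ± 2.06 with the kinase mutant (SD, n = 2). The difference from empty vector was -0.874 percentage points for the tail mutant and -0.533 for the kinase mutant. In exact two-sided permutation tests over the libraries p was 1 for the tail mutant and 0.667 for the kinase mutant, where 2 libraries against 2 cannot give less than 0.333. The difference between the tail and the kinase mutant, -0.341 percentage points, had an exact permutation p of 1. Benjamini-Hochberg adjustment over these 3 tests gave 1 for each. Without empty vector replicate 2 the means of the tail and kinase mutants lay above empty vector, by 0.500 and 0.841 points. The kinase mutant also lay above empty vector without its own replicate 2, by 0.925 points, and stood at -1.99 points without its replicate 1. The difference of the tail from the kinase mutant turned to 1.12 points when kinase mutant replicate 1 was left out, and was -1.80 points when replicate 2 was.

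The libraries with the highest summed shares, empty vector replicate 2 and kinase mutant replicate 1, also had the lowest shares of alignments that were not unique, at 27.6% and 27.3% of the total over all rows of their files, against 28.6% to 31.5% in the other libraries. Kinase mutant replicate 2, with the lowest summed share, had 28.6%. The part of this measure in the summed share was not tested.

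**Figure D1:**
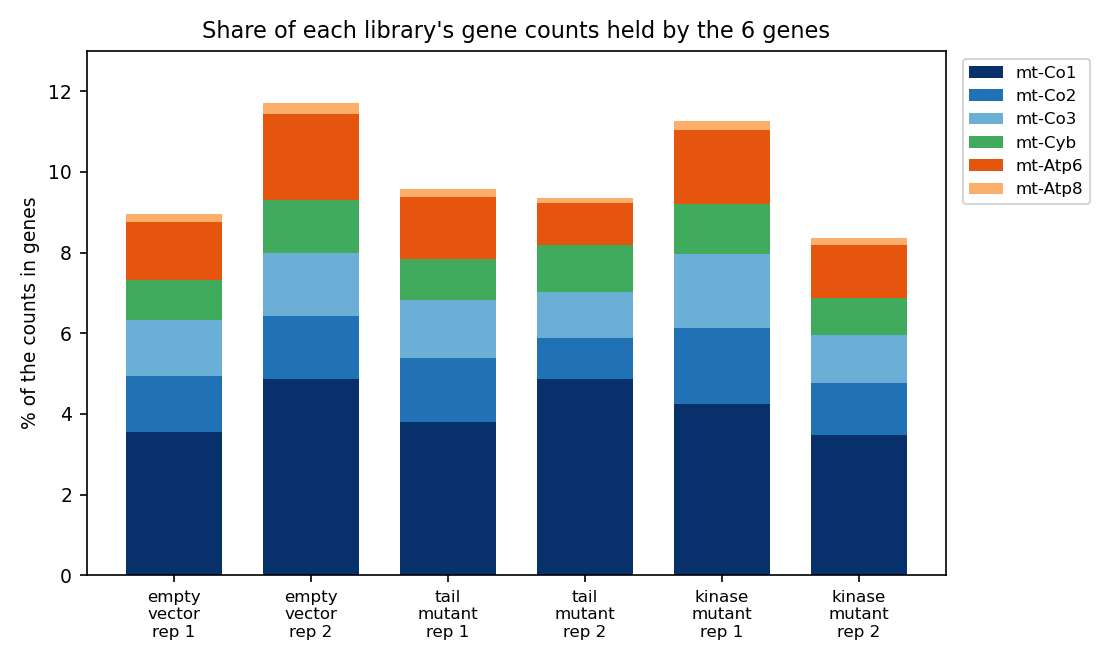
Share of each library's counts in genes (y axis, %) held by the 6 genes, stacked by gene, for the 6 libraries (x axis). The stacks reach 8.97% and 11.7% with empty vector, 9.58% and 9.35% with the tail mutant and 11.3% and 8.35% with the kinase mutant.

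Among the cytochrome c oxidase genes, the group means of mt-Co1 lay closest together, while mt-Co2 and mt-Co3 were lowest in 1 of the tail mutant libraries and highest in 1 of the kinase mutant libraries. Levels here and below are read counts relative to library size (CPM), scaled by the trimmed mean of M-values (TMM). The gene mt-Co1 encodes the catalytic subunit, which reduces oxygen. It stood at 32811 and 48088 CPM with empty vector, 39580 and 44869 CPM with the tail mutant, and 45252 and 37134 CPM with the kinase mutant. The lowest and the highest of the 6 libraries were the empty vector replicates, so that all 4 mutant libraries lay between them. The group means were 40449 ± 10803 CPM with empty vector, 42225 ± 3740 CPM with the tail mutant and 41193 ± 5740 CPM with the kinase mutant (SD, n = 2), and no neighbours in that order differed beyond their spread.

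The gene mt-Co2 encodes the subunit that takes up electrons from cytochrome c. Its levels were 12764 and 15433 CPM with empty vector, 16287 and 9509 CPM with the tail mutant, and 20148 and 13717 CPM with the kinase mutant. The empty vector libraries lay between the tail mutant replicates, of which replicate 2 was the lowest library of all, and kinase mutant replicate 1 was the highest. The highest library exceeded the lowest 2.12-fold, against 1.47-fold for mt-Co1.

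The gene mt-Co3 encodes the remaining mitochondrial core subunit of the oxidase. It was at 12883 and 15559 CPM with empty vector, 14956 and 10506 CPM with the tail mutant, and 19514 and 12805 CPM with the kinase mutant. As for mt-Co2, tail mutant replicate 2 was lowest and kinase mutant replicate 1 highest. The replicates of the kinase mutant differed by 0.61 on the log2 scale, more than any fitted difference between groups for this gene.

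The gene mt-Cyb encodes cytochrome b, which carries the quinone-binding sites of the bc1 complex and is its sole subunit made in the mitochondrion. It was at 9293 and 13077 CPM with empty vector, 10689 and 10641 CPM with the tail mutant, and 13232 and 9866 CPM with the kinase mutant. The tail mutant replicates differed by 0.0065 on the log2 scale, and both lay inside the range of the empty vector replicates. The replicates of empty vector and of the kinase mutant differed by 0.49 and 0.42.

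Both ATP synthase genes, like mt-Co2 and mt-Co3, had their lowest mean and their lowest library with the tail mutant, while the libraries of the groups overlapped. The gene mt-Atp6 encodes the subunit that forms the proton path of the membrane part of ATP synthase. It was at 13313 and 21112 CPM with empty vector, 15994 and 9637 CPM with the tail mutant, and 19707 and 14009 CPM with the kinase mutant. Tail mutant replicate 1 and both kinase mutant libraries lay between the empty vector replicates, and tail mutant replicate 2 lay below them. The highest of the 6 libraries, empty vector replicate 2, exceeded the lowest 2.19-fold, the widest range among the 6 genes.

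The gene mt-Atp8 encodes a short membrane subunit of ATP synthase. Its levels were 1842 and 2710 CPM with empty vector, 2015 and 1261 CPM with the tail mutant, and 2412 and 1716 CPM with the kinase mutant. Tail mutant replicate 1 and kinase mutant replicate 1 lay inside the empty vector range, and the replicate 2 libraries of both mutants lay below it. The means were highest with empty vector, in the order empty vector at 2276 ± 614 CPM, kinase mutant at 2064 ± 492 CPM and tail mutant at 1638 ± 533 CPM (SD, n = 2), and no neighbours in that order differed beyond their spread.

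**Figure D2:**
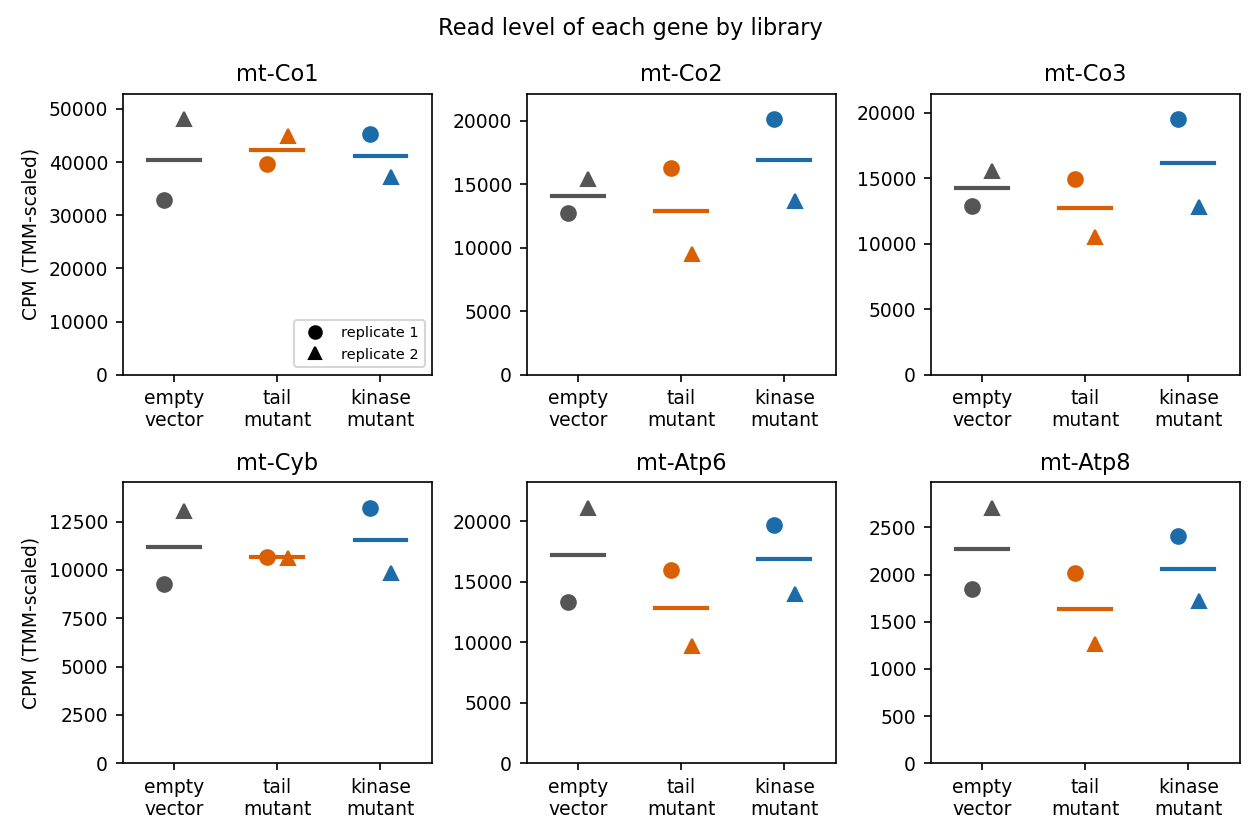
TMM-scaled CPM (y axes, starting at 0) of each of the 6 genes in each library, by group (x axes), with circles for replicate 1, triangles for replicate 2 and bars for the group means. The libraries of any 2 groups overlap in all 6 genes, and tail mutant replicate 2 is the lowest library for mt-Co2, mt-Co3, mt-Atp6 and mt-Atp8 but not for mt-Co1 and mt-Cyb.

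The replicates moved the 6 genes largely together, and in different directions in different groups. With empty vector all 6 genes were higher in replicate 2 than in replicate 1. With the kinase mutant all 6 were higher in replicate 1, and with the tail mutant 5 were higher in replicate 1, mt-Co1 being the exception. The median size of the difference between replicates over the 6 genes was 0.52 with empty vector, 0.59 with the tail mutant and 0.49 with the kinase mutant on the log2 scale. Over all 12221 genes tested the corresponding medians were 0.22, 0.36 and 0.24. Counting error was small beside these differences: the fewest counts of any of the 6 genes in a library, 26086 for mt-Atp8 in tail mutant replicate 2, carry a counting error of 0.619%.

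Setting the tail mutant against empty vector asks what changes in cells that the design describes as lacking the receptor's tail domain. None of the 6 genes passed the test: the quasi-likelihood test of edgeR, adjusted by Benjamini-Hochberg, called 0 of 6, against 0.00818% of all genes tested. The count at an unadjusted p below 0.05 was also 0 of 6, against 8.56% of all genes. DESeq2 called 0 of 6 against 2.03% of all genes, and limma-voom called 0 of 6 against 0%. Libraries of the groups overlapped in each of the 6 genes, whereas they did not overlap in 37.8% of all genes tested.

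The fitted difference between the tail mutant and empty vector was negative in 5 of the 6 genes, against 49.5% of all genes tested. The 6 genes largely moved together between replicates, so their signs are not separate observations. The median difference was -0.14 on the log2 scale, against 0.01 over all genes. The lowest adjusted p belonged to mt-Atp8, with a log2 difference of -0.47 ± 0.35 (SE) and an edgeR adjusted p of 0.753. The 95% confidence interval of that difference ran from 0.402-fold to 1.29-fold. For mt-Atp6 the log2 difference was -0.43 ± 0.40 (SE), with an interval from 0.378-fold to 1.47-fold. The differences of mt-Co2, mt-Co3 and mt-Cyb were -0.13 ± 0.38, -0.16 ± 0.35 and -0.07 ± 0.31 (SE). For mt-Co1 it was 0.06 ± 0.34 (SE), with an interval from 0.585-fold to 1.86-fold. Without tail mutant replicate 2 the sign turned for mt-Co1 (-0.03), mt-Co2 (0.21) and mt-Co3 (0.07). The differences of mt-Cyb, mt-Atp6 and mt-Atp8 were then -0.06, -0.10 and -0.17. The sign also turned for mt-Co1 without empty vector replicate 1, and for mt-Co2 and mt-Cyb without empty vector replicate 2. With tail mutant replicate 1 left out the difference of mt-Atp8 was -0.86, with an edgeR adjusted p of 0.291, the lowest over its alternatives, which ranged up to 0.998. That of mt-Atp6 was -0.84 in the same fit. With empty vector replicate 2 left out, mt-Atp8 was at -0.18 and mt-Atp6 at -0.06, and with its replicate 1 left out at -0.73 and -0.72.

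Setting the kinase mutant against empty vector asks the same of cells described as lacking the kinase domain. It uses the same empty vector libraries. Here too edgeR called 0 of 6 genes, against 0.00818% of all genes, and 0 of 6 had an unadjusted p below 0.05, against 10.8% of all genes. DESeq2 called 0 of 6 against 2.95%, and limma-voom 0 of 6 against 0%. Libraries overlapped in each of the 6 genes, whereas 50.7% of all genes tested had libraries that did not overlap.

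The fitted difference between the kinase mutant and empty vector was positive in 4 genes and negative in 2, where 51.3% of all genes were negative. Its median was 0.04 on the log2 scale, against -0.01 over all genes. The gene farthest from 0 was mt-Co2, at 0.26 ± 0.38 (SE), with an edgeR adjusted p of 0.827 and an interval from 0.636-fold to 2.27-fold. The differences of mt-Co3, mt-Cyb and mt-Co1 were 0.18 ± 0.35, 0.05 ± 0.31 and 0.03 ± 0.34 (SE). For mt-Atp6 and mt-Atp8 they were -0.03 ± 0.40 and -0.14 ± 0.35 (SE). The signs of mt-Co1, mt-Co2, mt-Co3 and mt-Cyb turned without kinase mutant replicate 1, and those of mt-Atp6 and mt-Atp8 turned without replicate 2. Without empty vector replicate 1 the signs of mt-Co1 and mt-Cyb turned, and without its replicate 2 those of mt-Atp6 and mt-Atp8.

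The mutants were also set against each other directly. EdgeR called 0 of 6 genes, against 0% of all genes, and 0 of 6 had an unadjusted p below 0.05, against 3.67%. DESeq2 called 0 of 6 against 0.0982%, and limma-voom 0 of 6 against 0%. Libraries overlapped in each of the 6 genes, whereas in 30.0% of all genes tested they did not. The fitted difference had a median of -0.34 on the log2 scale, against 0.01 over all genes. It was negative in 5 of 6 genes, against 49.0% of all genes. It was -0.39 ± 0.38 (SE) for mt-Co2, -0.34 ± 0.35 for mt-Co3, -0.40 ± 0.40 for mt-Atp6 and -0.33 ± 0.35 for mt-Atp8. For mt-Cyb it was -0.11 ± 0.31 and for mt-Co1 0.04 ± 0.34. The lowest adjusted p in edgeR was 0.926, for mt-Co2, and its interval ran from 0.403-fold to 1.44-fold. The sign of mt-Co1 turned without replicate 2 of either mutant, and that of mt-Cyb without kinase mutant replicate 1.

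The size of the differences between the mutants also turned on single libraries. Without tail mutant replicate 2 they were -0.06 for mt-Co2, -0.11 for mt-Co3, -0.08 for mt-Atp6 and -0.03 for mt-Atp8, and -0.06 and -0.11 for mt-Co1 and mt-Cyb. Without tail mutant replicate 1 the first 4 of these genes were at -0.84, -0.63, -0.81 and -0.71. When kinase mutant replicate 1 was left out they were at -0.09, -0.0090, -0.13 and -0.07, and when its replicate 2 was left out at -0.64, -0.62, -0.62 and -0.56. No adjusted p of the 6 genes in edgeR passed in any of these fits.

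Over the 18 fitted differences the lowest lower bound of a 95% interval was 0.378-fold, for mt-Atp6 in the tail mutant against empty vector, and the highest upper bound was 2.27-fold, for mt-Co2 in the kinase mutant against empty vector. The biological coefficient of variation that edgeR estimated ranged from 21.2% for mt-Cyb to 27.4% for mt-Atp6, against a median of 22.1% over all genes tested.

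**Figure D3:**
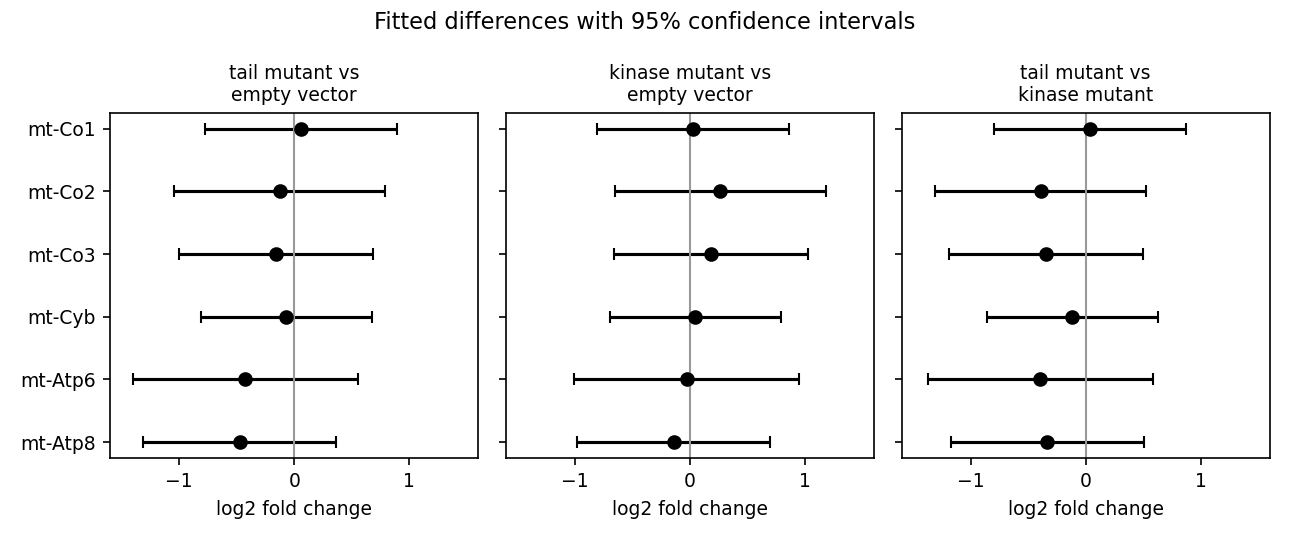
Fitted log2 fold changes (x axes) of the 6 genes (y axis) in the 3 comparisons, with 95% confidence intervals from edgeR as bars. Every interval crosses 0, and the lowest and highest bounds are 0.378-fold and 2.27-fold.

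Ratios between the 6 genes do not depend on how the libraries are scaled, and most of them set 1 library apart. In tail mutant replicate 2, mt-Co1 took 51.9% of the counts of the 6 genes, against 37.6% to 41.6% in the other libraries. In the same library mt-Co2 took 11.0% of these counts, against 13.3% to 16.8% in the others. The share of mt-Atp6 was 11.2% there, against 15.7% to 18.2%, and that of mt-Co3 was 12.2%, against 13.4% to 16.2%. The share of mt-Cyb was 12.3%, against 10.7% to 11.3%. The ratio of mt-Co1 to mt-Co2 counts was 4.72 in tail mutant replicate 2 and 2.25 to 3.12 in the other libraries. The other tail mutant library did not share this pattern, with a ratio of 2.43. The shares add up to a whole, so a higher share of mt-Co1 lowers those of the other genes. Most ratios without mt-Co1 also had their lowest or highest value in tail mutant replicate 2. The ratio of mt-Co2 to mt-Atp6 did not, at 0.987 there and 0.731 to 1.02 in the other libraries. Nor did mt-Co2 to mt-Atp8, at 7.54 against 5.69 to 8.35, or mt-Atp6 to mt-Atp8, at 7.64 against 7.23 to 8.17.

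The share of mt-Atp8 among the counts of the 6 genes was lower in all 4 libraries of the mutants than with empty vector. This was singled out after the values had been seen. The share was 2.22% and 2.34% with empty vector, 2.02% and 1.46% with the tail mutant, and 2.01% and 1.92% with the kinase mutant. Neither mutant thus overlapped with empty vector, while the mutants overlapped with each other. Tail mutant replicate 2 was again farthest away. The means were 2.28% ± 0.0814 with empty vector, 1.74% ± 0.400 with the tail mutant and 1.96% ± 0.0585 with the kinase mutant (SD, n = 2). In exact two-sided permutation tests p was 0.333 for each mutant, the smallest that 2 libraries against 2 can give, so neither comparison could pass. Adjusted by Benjamini-Hochberg over the 18 tests of the 6 shares in the 3 comparisons, both were 0.923.

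Of the 6 shares, 1 did not overlap between the tail mutant and empty vector, 2 between the kinase mutant and empty vector, and 0 between the mutants. The other with the kinase mutant was mt-Cyb, at 11.0% and 11.1% against 11.2% and 11.3%. When the counts of every gene tested were set against the total of the 6 genes in the same way, libraries did not overlap in 22.2%, 26.9% and 20.1% of genes in these comparisons. These percentages are not a like measure for the 6 genes, which make up that total while the other genes do not. The counts of 1 and 2 of 6 therefore cannot be judged by them.

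The ratio of mt-Atp6 to mt-Atp8, whose reading frames overlap in a shared mRNA, varied least of the 15 ratios, 1.13-fold between its lowest and its highest library. It was 7.23 and 7.79 with empty vector, 7.94 and 7.64 with the tail mutant, and 8.17 and 8.16 with the kinase mutant. The kinase mutant libraries lay above all the others, and the tail mutant libraries overlapped with empty vector. Libraries did not overlap in 7 of the 15 ratios for the tail mutant against empty vector, and in 8 for the kinase mutant. Ratios to mt-Atp8 made up 4 of these 7 and 5 of these 8. Between the mutants the ratio of mt-Atp6 to mt-Atp8 was the 1 that did not overlap. The ratios share genes, no share over all gene pairs was computed, and none of the ratios was tested. As a share of the counts of both genes, mt-Atp8 took 12.2% in empty vector replicate 1 (exact 95% binomial interval 12.1% to 12.3%) and 11.4% in replicate 2 (11.3% to 11.5%). It took 10.9% in both kinase mutant libraries, with intervals of 10.8% to 11.0% in each. The intervals cover counting error only, and they overlapped between the kinase mutant replicates but not between the empty vector replicates. Reads that fell on more than 1 gene were 5494 to 7740 per library over all genes, and how the counting treated the overlap of these reading frames is not given in the sources used here.

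**Figure D4:**
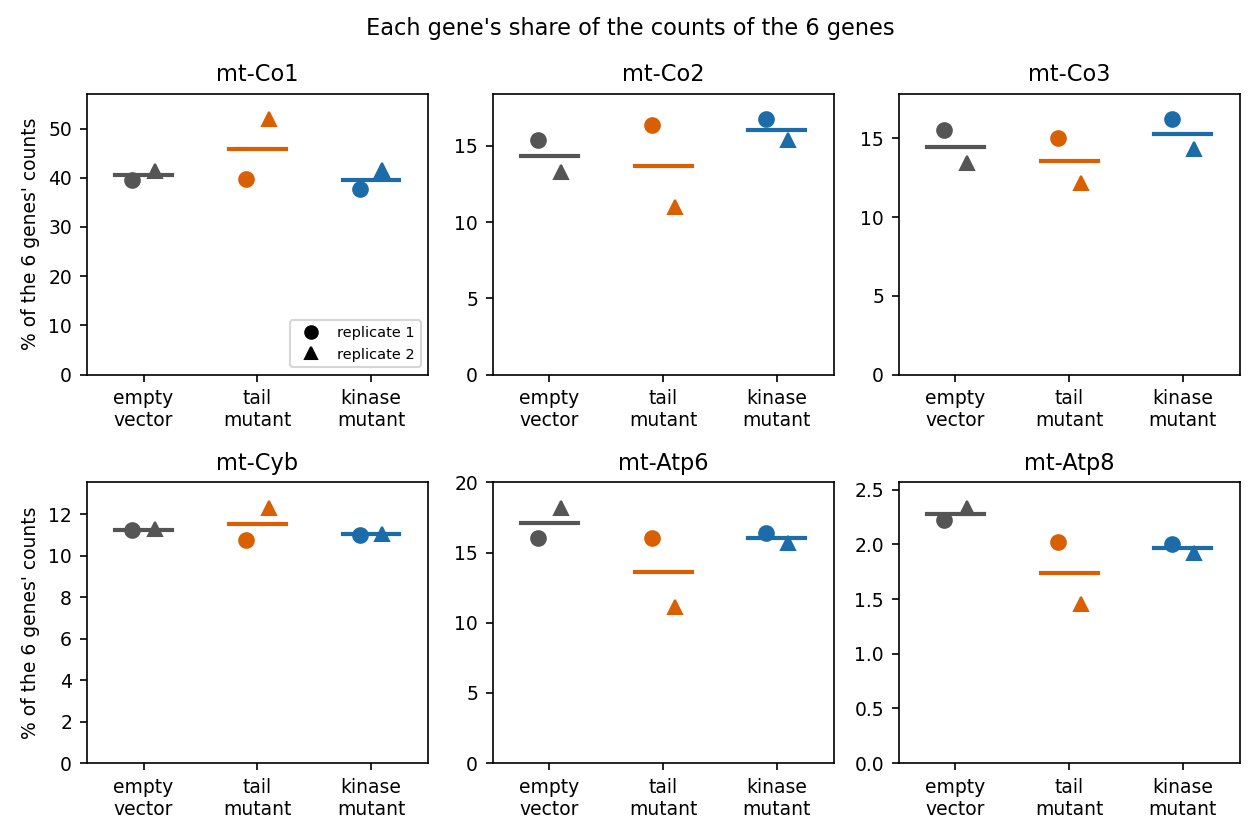
Share of each gene in the counts of the 6 genes together (y axes, %, starting at 0) by library and group (x axes), with circles for replicate 1, triangles for replicate 2 and bars for the group means. Tail mutant replicate 2 stands apart in all 6 panels, at 51.9% for mt-Co1, and the mt-Atp8 share is 2.22% and 2.34% with empty vector and at most 2.02% in the mutants.

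Across the 6 libraries the ATP synthase genes varied most alike, and mt-Co2 was alike to mt-Co3 but little to mt-Co1. These values are Pearson's r of log2 CPM over 6 libraries, which share depth and composition effects, and are given as a description. The closest pair was mt-Atp6 with mt-Atp8, at 0.988, each being the fourth most alike gene of the other among 12220. Without tail mutant replicate 2 this pair was at 0.970 and was no longer the closest. The pair mt-Co2 with mt-Co3 followed at 0.975, ranked 9 and 6 for each other. The gene mt-Co1 was alike to mt-Cyb, at 0.877, but not to the other oxidase genes, at 0.19 with mt-Co2 and 0.32 with mt-Co3. Between mt-Co1 and mt-Atp6 r was 0.35.

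The low r of mt-Co1 with most of the others rested on 1 library. Without tail mutant replicate 2, over 5 libraries, r rose to 0.979 between mt-Co1 and mt-Atp6, to 0.729 between mt-Co1 and mt-Co2 and to 0.769 between mt-Co1 and mt-Co3. Between mt-Co1 and mt-Cyb it was then 0.971, and between mt-Cyb and mt-Atp6 0.988, against 0.718 with all libraries. Outside the 6 genes, the genes most alike to the mean log2 CPM of the 6 were ENSRNOG00000015683, with r of 0.991, and ENSRNOG00000023910, with r of 0.980. The first had 0.68 to 2.79 CPM in the 6 libraries and the second 290.2 to 516 CPM, and the files give no name for either. Both were lowest in tail mutant replicate 2, but they were chosen for likeness to the mean of the 6 genes, so this adds nothing to it. At 0.68 to 2.79 CPM the first of them rests on few reads.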

How the data were processed

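Each library has 1 deposited file of raw counts, whole reads for each Ensembl gene identifier of the rat, with no scaling, as the labels and the values show. The submitters' processing notes name Trimmomatic 0.33, STAR 2.4.0, HTSeq 0.6.1p1 and build Rnor_5.0. The counting mode, with its strand setting and annotation release, is not given in the sources used here. Reads that align equally well to nuclear copies of mitochondrial genes would be treated as not unique and enter no gene's count. The 5 rows that name no gene, 43.1% to 48.4% of each file's total, were left out.

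In R 4.3.3, edgeR 4.0.16 (filterByExpr with a minimum count of 10 and total of 15, TMM, robust dispersions, group as the only term, all 6 libraries) tested 12221 genes. Benjamini-Hochberg adjustment ran over all of them, with calls below 0.05. Standard errors are the log2 change divided by the square root of F, and 95% intervals use the t quantile at 6.25 degrees of freedom. Log2 CPM for likeness used a prior count of 2. DESeq2 1.42.0, limma-voom (limma 3.58.1), other scalings, no filter, fewer libraries and a replicate block were alternatives.

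All 6 genes are named, by their defining list. That list, the tests and the alternatives were chosen with earlier results of these data known. Other respiratory chain genes and myoblast markers, listed by symbol, were not tested: 0 of the 47357 genes in the reference table (GRCr8) carry an Ensembl identifier. For likeness, the 2 outside genes with the highest r were named.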

Additional observations from a re-analysis of the deposited data

How the results depend on the processing

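Under 16 alternatives none of the 6 genes passed in any of the 3 comparisons. The lowest adjusted p was 0.291 with a library left out and 0.684 under the other 10 alternatives. Same-numbered replicates did not deviate together: r was 0.12 between empty vector and tail mutant, -0.13 between empty vector and kinase mutant, and -0.35 between the mutants, over 12221 genes. With the replicate block 0 of 6 genes were called in each comparison, and edgeR called 2, 2 and 0 of all genes for the tail mutant, the kinase mutant and the direct comparison, against 1, 1 and 0. With the kinase mutant's numbers exchanged, an alternative chosen after seeing the data, it also called 2, 2 and 0.

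Scaling by library totals alone moved the median of all genes to -0.17 for the kinase mutant against empty vector and to 0.13 for the tail against the kinase mutant. Signs then turned for mt-Co1 (-0.12) and mt-Cyb (-0.11) in the former and mt-Cyb (0.012) in the latter. Relative to those medians they were 0.049, 0.068 and -0.12, so that no sign turned. With upper-quartile scaling mt-Co1 was at -0.0065 for the kinase mutant.

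Leaving out 1 library turned the sign of 12 of the 18 log2 differences. For the tail mutant against empty vector the ranges were -0.19 to 0.35 for mt-Co1, -0.57 to 0.21 for mt-Co2, -0.44 to 0.074 for mt-Co3 and -0.29 to 0.19 for mt-Cyb. For the kinase mutant they were -0.22 to 0.33 for mt-Co1, -0.039 to 0.52 for mt-Co2, -0.15 to 0.46 for mt-Co3, -0.18 to 0.31 for mt-Cyb, -0.32 to 0.34 for mt-Atp6 and -0.41 to 0.16 for mt-Atp8. For the tail against the kinase mutant they were -0.10 to 0.18 for mt-Co1 and -0.31 to 0.11 for mt-Cyb. An arm left with 1 library was assumed to vary like the others. The difference in summed share ranged from -2.25 to 0.500 points for the tail mutant, -1.99 to 0.925 for the kinase mutant and -1.80 to 1.12 between the mutants.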
